A study of Sus scrofa with 6 samples.

Results

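The miRNAs described are ssc-miR-378, ssc-miR-185 and ssc-miR-130b, which are known for targets in lipid and energy metabolism. They are 3 of the 236 rows with a pig miRNA name in a liver miRNA array table of 336 rows, the other 100 rows carrying an LRS label and no miRNA name. The 3 were chosen by their known targets and by measured values of the breed comparison itself, so their differences between breeds are given as a description, with no p-value of their own, and calls that include them are only counted.

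The study compared the livers of newborn male piglets of the purebred Large White (LW) and Erhualian (EHL) pig breeds. The arrays numbered 6, with 3 for each breed, and each array carried total RNA pooled from 2 piglets of the same litter, so that 6 piglets stood behind each breed. No treatment was named, and breed was the factor compared. The piglets came from a pair of neighbouring farms, and farm and breed cannot be told apart from the sources used here.

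A miRNA guides a silencing complex to messenger RNAs that pair with its seed, and lowers their stability or translation. A gene of miR-378 lies within PPARGC1B, which encodes a transcriptional coactivator, and miR-378 represses the carnitine acetyltransferase CRAT, an enzyme of mitochondrial metabolism. Both miR-185 and miR-130b act on lipid handling, miR-185 through the cholesterol regulator SREBP-2 and the HDL receptor SCARB1, and miR-130b through PPARG, the main regulator of fat cell formation.

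The sequences are shown because the seed sets which messenger RNAs a miRNA can pair with. They are the forward primers designed by the study for its RT-qPCR of these miRNAs, written 5′ to 3′ in DNA letters with T for U, and the capitals mark bases 2 to 8, the position of the seed.

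ssc-miR-378: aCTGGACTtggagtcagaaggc
ssc-miR-185: tGGAGAGAaaggcagttcctga
ssc-miR-130b: cAGTGCAAtgatgaaagggcat

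Each sequence was 22 bases long, and the 3 seeds differed from one another. In the seed, miR-378 and miR-185 had the same base at 2 positions, miR-378 and miR-130b at 1, and miR-185 and miR-130b at 3. Over the whole length the same base stood at 4, 6 and 4 positions in these pairs. For each of the 3, none of the 17 other miRNA forward primers of the set, those of the other 2 included, had its seed. G and C made up 12 of the 22 bases in miR-378, 11 in miR-185 and 10 in miR-130b.

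In the pig gene table of the Sscrofa11.1 assembly, miR-378 corresponded to 2 genes, of which MIR378-1 overlapped PPARGC1B and MIR378-2 overlapped BCAS3. The table holds 1 row for miR-378, so signal from either gene cannot be told apart. MIR185 overlapped TANGO2 and lay within 50 kb of MIR1306 and of DGCR8, a component of the complex that cuts primary miRNA transcripts. MIR130B was a single gene that overlapped the protein-coding gene LOC100155534, with no other miRNA gene within 50 kb.

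Normalized fluorescence intensity, called signal here, was listed for 119, 134 and 121 named rows on LW arrays 1, 2 and 3, and for 123, 101 and 117 on EHL arrays 1, 2 and 3. The other cells were blank. Named rows with a signal on all 6 arrays numbered 96, the 3 miRNAs among them, and 88 were blank throughout. EHL array 1 differed most from the other arrays of its breed, with a root mean square difference from them of 0.81 on the log2 scale over these 96 rows. EHL array 3 was close behind at 0.72, and EHL array 2 was at 0.56. LW arrays 1, 2 and 3 were at 0.63, 0.46 and 0.40. The log2 differences of the 3 miRNAs, the calls and the gaps between breeds are given with and without EHL array 1. Of the single arrays left out, it was the one whose omission gave the highest log2 difference for each of the 3 miRNAs. Other values, such as spreads, profile likeness and marker sums, include it. Over the 96 rows the arrays were at a similar level, with median signals of 218, 187 and 209 on the LW arrays and 208, 213 and 209.5 on the EHL arrays. Precision is limited by the 3 arrays of each breed, and the spread given is that between pools of littermates.

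The signal of miR-378 was 36, 27 and 28 on LW arrays 1, 2 and 3 and 41, 84 and 66 on EHL arrays 1, 2 and 3. All EHL arrays lay above all LW arrays, but EHL array 1 was close to LW array 1 while EHL arrays 2 and 3 were well above it. The LW mean was 30.3 ± 4.93 and the EHL mean 63.7 ± 21.6 (SD over 3 arrays), 2.10 times as high. On the log2 scale EHL exceeded LW by 1.02 with a limma standard error of 0.32, and without EHL array 1 by 1.31 with a standard error of 0.30. In whole liver RNA, a change in the number of cells of a type and a change in the RNA per cell cannot be told apart.

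The signal of miR-185 was 95, 121 and 111 on the LW arrays and 143, 209 and 209 on the EHL arrays, in the same order. EHL arrays 2 and 3 were equal and highest, EHL array 1 lay between them and the LW arrays, and the breeds did not overlap. LW averaged 109 ± 13.1 and EHL 187 ± 38.1 (SD over 3 arrays), 1.72 times the LW mean. The log2 difference was 0.76 with a standard error of 0.27, and 0.95 with a standard error of 0.29 without EHL array 1.

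The signal of miR-130b was 60, 54 and 54 on the LW arrays and 76, 83 and 119 on the EHL arrays. The LW arrays were nearly equal, EHL array 3 was well above the other EHL arrays, and the breeds did not overlap. The means were 56.0 ± 3.46 for LW and 92.7 ± 23.1 for EHL (SD over 3 arrays), 1.65 times the former. The log2 difference was 0.70 with a standard error of 0.27, and 0.83 with a standard error of 0.30 without EHL array 1. Without EHL array 3 it was 0.51.

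**Figure D1:**
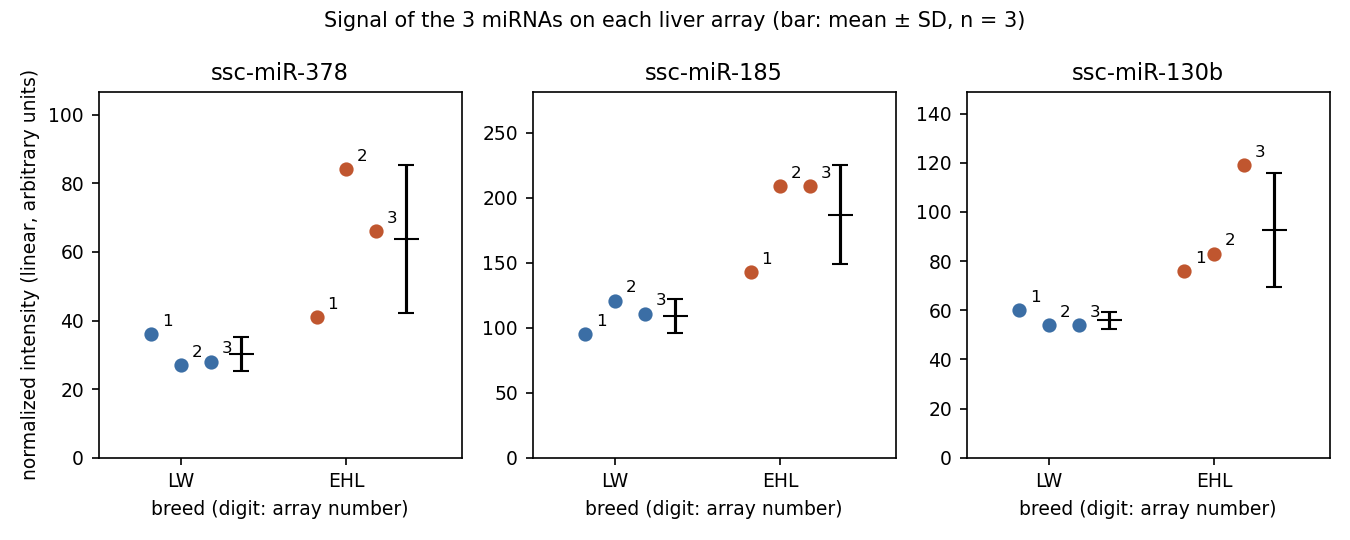
Signal of each miRNA (y axis, normalized intensity in linear arbitrary units, starting at 0) on the 3 LW arrays (blue) and the 3 EHL arrays (orange), with digits giving the array number and bars the mean ± SD of each breed. EHL array 1 is the lowest EHL array in each panel, at 41, 143 and 76, and the highest LW arrays are at 36, 121 and 60.

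The distance between the breeds was narrow at its closest point. The lowest EHL signal exceeded the highest LW signal by 5 units in miR-378, 22 in miR-185 and 16 in miR-130b, or 1.14-fold, 1.18-fold and 1.27-fold. Within a breed, the highest signal of miR-378 was 1.33 times the lowest in LW and 2.05 times in EHL, so that its gap between breeds was smaller than its range inside either of them. For miR-185 these ranges were 1.27-fold and 1.46-fold, again larger than the gap. For miR-130b they were 1.11-fold and 1.57-fold, and its gap was larger than the LW range only. In each of the 3 miRNAs the highest LW array and EHL array 1 were neighbours in the order of signals. Without EHL array 1 the lowest EHL signals were 66, 209 and 83, beside highest LW signals of 36, 121 and 60. For miR-378 and miR-185 the gap was then larger than the range inside either breed. For miR-130b it was again larger than the LW range only.

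With EHL array 1 included, the breed that was higher was also the more variable. The SD of log2 signal was 0.23 in LW and 0.53 in EHL for miR-378, 0.18 and 0.32 for miR-185, and 0.088 and 0.34 for miR-130b. For miR-185 the larger EHL value rested on EHL array 1, as EHL arrays 2 and 3 were both at 209. For miR-378 EHL array 1 lay apart at 41, beside 84 and 66 on EHL arrays 2 and 3. For miR-130b EHL arrays 2 and 3 themselves differed, at 83 and 119. A larger SD in EHL was also seen in the median over the 96 rows, 0.27 in LW and 0.36 in EHL, but not in every range of signal. Rows within 2-fold of the mean signal of miR-378 had a median SD of 0.25 in LW and 0.33 in EHL, those near miR-185 0.41 and 0.42, and those near miR-130b 0.33 and 0.32. Pooled over the breeds, the SD was 0.41 for miR-378, larger than in 63 of the 96 rows. It was 0.26 for miR-185 and 0.25 for miR-130b, larger than in 25 and 21 rows, beside a median of 0.35. Among the rows within 2-fold of its own mean signal, miR-378 varied more than 20 of 28, miR-185 more than 5 of 25 and miR-130b more than 8 of 29. With EHL array 1 included, the spread of miR-378 was thus above the middle of its neighbours in signal, and that of the other 2 miRNAs below it. These placings were not worked out without that array.

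**Figure D2:**
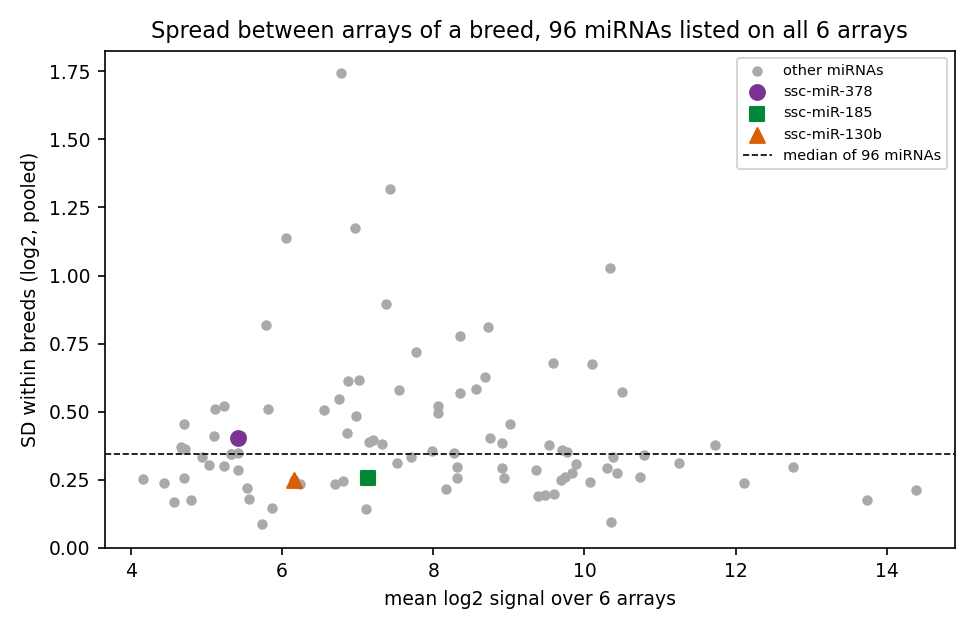
SD of log2 signal between arrays of a breed, pooled over both breeds (y axis), against mean log2 signal over the 6 arrays (x axis) for the 96 miRNAs listed on all arrays, with the dashed line at their median of 0.35. miR-378 lies above the line at 0.41, and miR-185 and miR-130b below it at 0.26 and 0.25.

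Each signal was set against the lowest one listed on its array. On the 6 arrays miR-378 stood at 2.15 to 6 times the lowest signal listed on the same array, miR-130b at 4.15 to 10.8 times and miR-185 at 7.31 to 19 times, where the lowest listed signals were 10 to 16. The share of residual background in these signals is unknown. With an offset of 16 added to every signal before log2, the log2 differences of miR-378, miR-185 and miR-130b were 0.75, 0.69 and 0.57.

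The sizes of the 3 differences could not be ordered. The standard errors used for this came from the spread within breeds of the log2 signal ratio of each pair, not from the limma fit. The log2 difference of miR-378 exceeded that of miR-185 by 0.26 with a standard error of 0.27, and that of miR-130b by 0.32 with a standard error of 0.31. The differences of miR-185 and miR-130b were 0.063 apart with a standard error of 0.22. Each of these gaps was about as large as its error or smaller.

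The breed comparison over all rows gives the background for these values. The limma test took in the 109 named rows that had signals on 2 or more LW arrays and 2 or more EHL arrays, at a Benjamini-Hochberg false discovery rate of 15%. The study set this rate for the array with SAM as its method. The limma test called 0 of the 3 miRNAs, and 0.917% of all rows as higher in EHL. This was 1 row, miR-184, at a log2 difference of 1.72 with a standard error of 0.29 and a limma adjusted p of 0.0253. For miR-184 every EHL array lay above every LW array. At an unadjusted p under 0.05 limma gave 13 of the 109 rows. The call of miR-184 was lost, with 0 rows called, under quantile normalization, the replicate block or centring over all listed rows. It was also lost without LW array 3 or EHL array 2. The log2 difference of miR-184 was 1.44 under quantile normalization and 1.43 under centring over all listed rows. The SAM statistic at the same rate called all 3 miRNAs as higher in EHL, where it called 7.34% of all rows, 8 of 109. Without EHL array 1, limma called all 3, where 15 of the 97 rows then tested, 15.5%, were called higher and 9 lower. With array weights, which counted EHL array 1 least, limma called miR-378 alone of the 3, where 3.67% of the rows, 4 of 109, were called higher. The miRNAs were chosen on this comparison, and nothing is read from their counts beside these shares.

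Every EHL array lay above every LW array for 11 of the 96 rows listed throughout, 11.5%, and the 3 miRNAs were among these. Another 7 rows had every EHL array below every LW array. After the arrays were centred on their medians over the 96 rows, the higher rows were 10, or 10.4%, again with the 3 miRNAs, and the lower rows 7. The 8 rows that shared the pattern with them on the deposited scale were miR-143-3p, miR-151-5p, miR-184, miR-193a-5p, miR-24, miR-500, miR-532-5p and miR-885-3p.

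**Figure D3:**
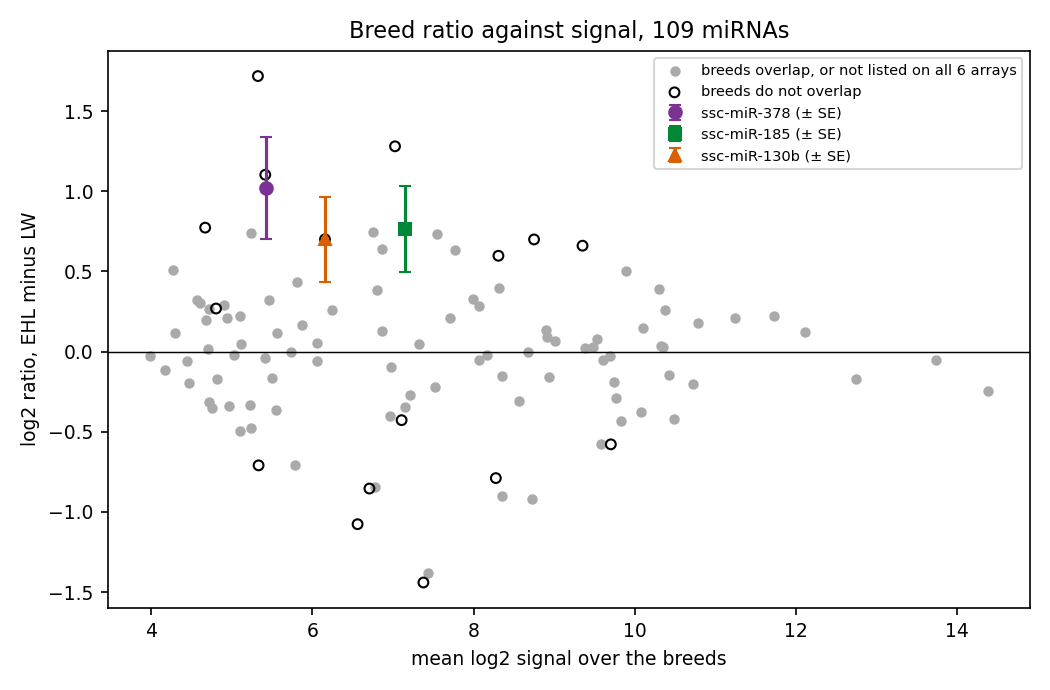
Log2 ratio of EHL to LW (y axis) against mean log2 signal over the breeds (x axis) for the 109 miRNAs tested, with open circles for rows whose breeds did not overlap and coloured symbols with limma standard error bars for miR-378 at 1.02, miR-185 at 0.76 and miR-130b at 0.70. The 11 non-overlapping rows above 0 include the 3 miRNAs.

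The scale on which arrays were set level moved these values. The arrays listed different numbers of rows, and a scaling over all listed signals compared the 101 rows of EHL array 2 with the 134 of LW array 2, whose medians over all listed rows were 170 and 79. For rows listed on all 6 arrays, the 3 miRNAs included, the log2 difference fell by 0.28 when arrays were centred on such medians, whereas it fell by 0.043 when they were centred over the 96 shared rows. Under centring over all listed rows the log2 difference was 0.74 (limma standard error 0.40) for miR-378, 0.48 (0.41) for miR-185 and 0.42 (0.42) for miR-130b. Under quantile normalization of all listed signals it was 0.60 (0.24), 0.30 (0.31) and 0.19 (0.40). For miR-185 and miR-130b each of these differences was about as large as its error or smaller. On the deposited scale the median over the 109 rows was 0.025, and under these scalings it was -0.25 and -0.26.

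On both of these scales, the differences moved less when set against the median of all rows on the same scale. For centring this followed from the arithmetic, as every row listed on all 6 arrays fell by the same amount, and nothing is read from it. For miR-378 the distance above that median was 0.996 as deposited, 0.99 with centring over all listed rows and 0.86 with quantile normalization. For miR-185 it was 0.74, 0.73 and 0.56. For miR-130b it was 0.68, 0.67 and 0.46. The breeds overlapped for miR-185 and miR-130b under centring over all listed rows and under this quantile normalization, where rows with EHL above numbered 4 and 5 and rows with EHL below 13 and 15. Quantile normalization restricted to the 96 shared rows left the 3 miRNAs without overlap, with log2 differences of 0.99, 0.76 and 0.61 that lay 0.94, 0.71 and 0.56 above that scale's median of 0.049, and had 11 rows above and 6 below.

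**Figure D4:**
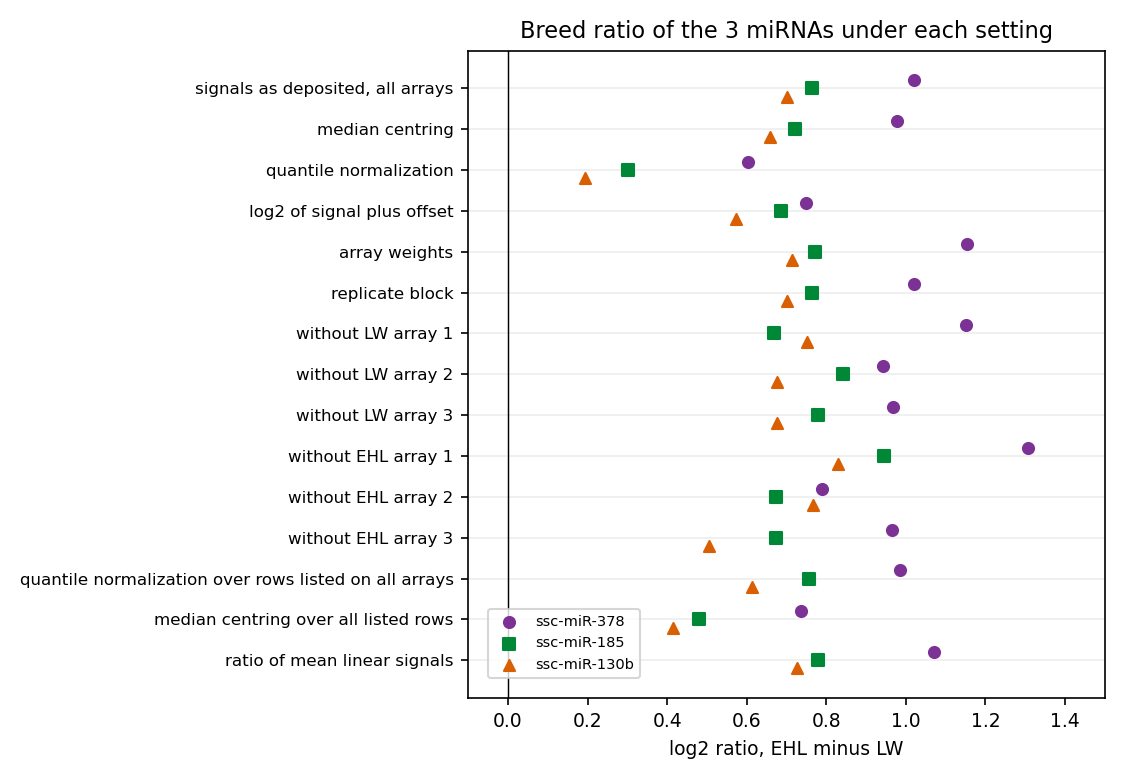
Log2 ratio of EHL to LW (x axis, with a line at 0) for each miRNA (symbols) under each setting of the analysis (y axis), from the deposited signals on all arrays at the top to other scalings, weights and each array left out. Every ratio lies above 0, with quantile normalization of all listed signals giving the lowest, at 0.60 for miR-378, 0.30 for miR-185 and 0.19 for miR-130b. Standard errors are not drawn.

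Likeness of profile was measured as the root mean square difference between log2 signals over the 6 arrays, each miRNA centred on its own mean, against the 95 other rows listed throughout. Nearest to miR-378 was miR-193a-5p at 0.13, with signals of 34, 29 and 25 in LW and 44, 76 and 73 in EHL. The next were miR-140* at 0.27 and miR-500 at 0.28, and the median over the 95 rows was 0.66. Like miR-378, miR-193a-5p was low on EHL array 1 and high on EHL arrays 2 and 3.

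Nearest to miR-185 was miR-151-5p at 0.12, with signals of 508, 589 and 470 in LW and 612, 966 and 939 in EHL. It was followed by miR-361-5p and miR-130b, both at 0.22, where the median was 0.53. As in miR-185, EHL array 1 of miR-151-5p lay just above the LW arrays and EHL arrays 2 and 3 lay close together. Nearest to miR-130b was miR-143-3p at 0.15, with signals of 306, 264 and 212 in LW and 308, 398 and 484 in EHL. It was followed by miR-24 and miR-500, both at 0.16, where the median was 0.47. EHL array 3 was the highest for miR-130b, miR-143-3p, miR-24 and miR-500 alike.

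Among the 3 miRNAs, the profiles of miR-185 and miR-130b were the closest pair at 0.22, followed by miR-378 and miR-185 at 0.30 and miR-378 and miR-130b at 0.35. EHL array 2 was the highest array for miR-378, and EHL array 3 for miR-130b.

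**Figure D5:**
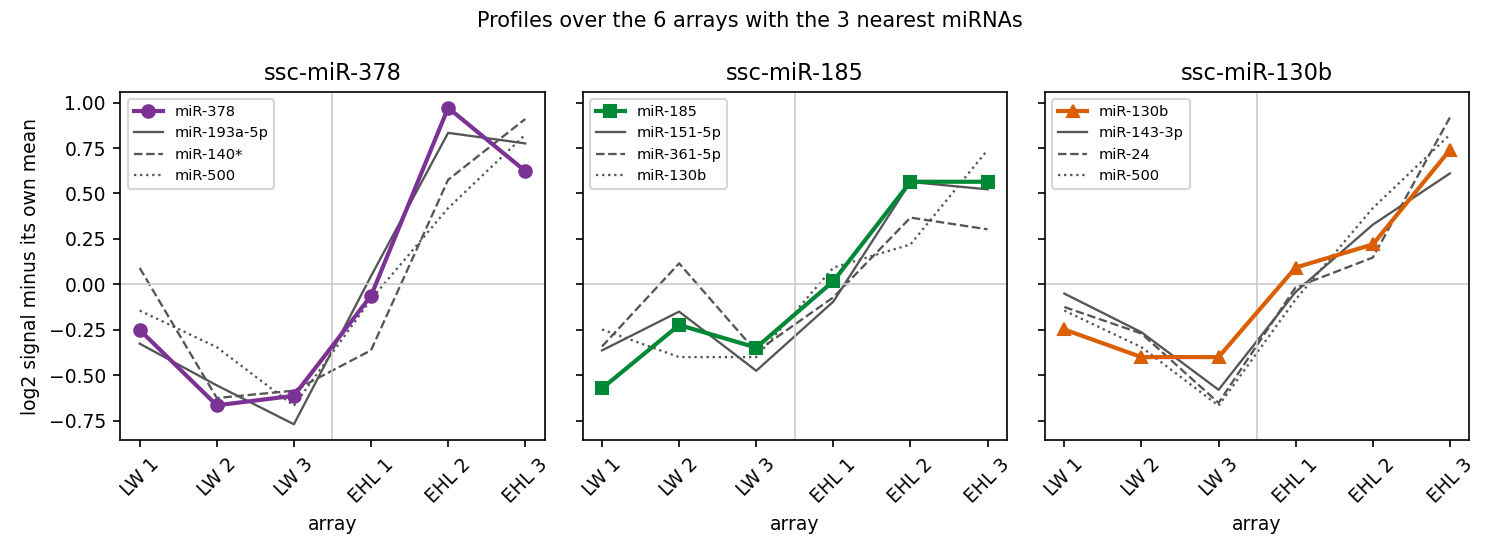
Log2 signal minus its own mean over the 6 arrays (y axis) by array (x axis, LW left and EHL right of the grey line) for each miRNA (coloured) and the 3 nearest miRNAs (thin solid, dashed and dotted lines, nearest first). The nearest profiles differ by a root mean square of 0.13 for miR-193a-5p from miR-378, 0.12 for miR-151-5p from miR-185 and 0.15 for miR-143-3p from miR-130b.

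Rows related to the 3 miRNAs by seed family or by gene position were also read. For miR-130a, which shares its seed with miR-130b, the signal was 30, 24 and 37 in LW and 32 and 22 on EHL arrays 1 and 3, with EHL array 2 blank. The breeds overlapped, with a log2 difference of -0.17, a standard error of 0.33 and a limma adjusted p of 0.886. The row for miR-301, of the same seed family, was blank on all 6 arrays.

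The gene of miR-1306 is a neighbour of MIR185. The signal of miR-1306-5p was 31, 22 and 37 in LW and 18, 28 and 26 in EHL, where miR-185 was higher on every EHL array. The breeds overlapped for miR-1306-5p, with a log2 difference of -0.32, a standard error of 0.30 and a limma adjusted p of 0.746. The other arm, miR-1306-3p, was listed on 4 arrays at 13 to 19, close to the lowest listed signals. Whether miR-185 differed from miR-1306-5p in its response was not tested.

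Other miRNAs with known roles in hepatic lipid and glucose metabolism were taken as a list of 29 names, of which 22 rows were found and 14 tested. By limma 0 of the 14 passed the threshold, 1 had an unadjusted p under 0.05, and SAM called 0, beside 1, 13 and 8 of all 109 rows. Nothing is read from counts this small. In EHL 6 were higher and 8 lower, with a median log2 difference of -0.028 beside 0.025 over the 109 rows, of which 56 were higher and 53 lower. Under quantile normalization of all listed signals the list had 3 higher, 10 lower and 1 tied to within 1e-09, where all 109 rows had 27 higher, 81 lower and that tie. Over the 96 shared rows it had 8 higher, 3 lower and 2 tied of the 13 rows it kept, where all 96 had 50 higher, 44 lower and the same 2 ties. The split of the list, like that of all rows, thus moved with the scale. The tied rows were miR-122 and, over the shared rows, also miR-26a, each with the same rank on every array. Quantile normalization gives equal ranks equal values, so nothing is read from these ties.

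At the ends of the list were miR-24 and miR-27a, whose genes are known to be clustered. The signal of miR-24 was 395, 357 and 274 in LW and 426, 477 and 814 in EHL, a log2 difference of 0.70 with a standard error of 0.32. That of miR-27a was 131, 148 and 143 in LW and 98, 76 and 63 in EHL, a log2 difference of -0.85 with a standard error of 0.26. Neither passed the threshold. Besides miR-24, miR-143-3p was the list's other row with every EHL array above every LW array, and miR-27a its only row with every EHL array below. That is 2 above and 1 below among its 13 rows listed throughout, beside 11 and 7 of all 96. Nothing is read from these counts.

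Marker miRNAs of liver cell types were read on the same arrays as a check of the tissue. Of the 4 hepatocyte rows 3 were listed throughout and miR-194 was blank, and their summed signal was 33001, 24963 and 28822 in LW and 28497, 24316 and 24137 in EHL. The brightest of these was miR-122, the main hepatocyte miRNA, with a log2 difference of -0.25 and a standard error of 0.26, and it made up most of the sums. The differences of miR-148a and miR-192 had the other sign, at 0.15 (standard error 0.43) and 0.12 (standard error 0.26). All 3 were lower in EHL under centring over all listed rows. Under quantile normalization, both of all listed signals and over the shared rows, 2 were higher and 1 was tied. The tied row was miR-122, the highest signal on every array. Quantile normalization gives the highest signal of each array the same value, so this tie says nothing about the breeds. The hepatocyte sums of the breeds overlapped.

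Erythroid markers were highest on EHL array 1. Both rows found for 3 names, miR-451 and miR-486, were listed throughout, with a sum of 249, 124 and 159 in LW and 410, 78 and 85 in EHL, mostly from miR-451. EHL array 1, with the highest erythroid sum, had the lowest signal of the EHL arrays for miR-378, miR-185 and miR-130b. Among the LW arrays, array 1 had the highest erythroid sum, the highest signal of miR-378 and miR-130b, and the lowest of miR-185. The part of blood cells in the signals of the 3 miRNAs was not tested, and without EHL array 1 their differences were larger, as given above.

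For the endothelial marker miR-126 the signal was 2209, 4098 and 3436 in LW and 4524, 3110 and 3506 in EHL. The 7 mesenchymal or stellate rows summed to 4080, 3892 and 3336 in LW and 3101, 4970 and 3782 in EHL, with miR-214 the brightest and log2 differences from -0.43 for miR-199a-3p to 0.60 for miR-143-3p. The rows miR-199a* and miR-199b* were not matched by name, and were added after their values were seen, with log2 differences of -0.20 and -0.58 and, for miR-199b*, every EHL array below every LW array. The sums of the breeds overlapped in both the endothelial and the mesenchymal list. Their sums on EHL array 1 were at opposite ends, the highest of all arrays for miR-126 and the lowest for the mesenchymal rows. Because miR-143-3p was the nearest profile to miR-130b, the mesenchymal sums are given here, and the part of such cells in the signal of miR-130b was not tested.

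Markers of immune cells and of skeletal muscle were blank in nearly every cell, which does not show that the miRNAs were absent. Of the 4 immune rows, miR-142 and miR-146b were each listed at 12 on EHL array 3 alone, and miR-146a and miR-155 were blank on all arrays. Of the 5 muscle rows, miR-133a-3p was listed at 17 on LW array 2 and at 14 on LW array 3 and EHL array 1, and miR-1, miR-133a-5p, miR-133b and miR-206 were blank. Rows tested were 3 hepatocyte, 2 erythroid, 1 endothelial and 5 mesenchymal, and 0 immune or muscle rows. By limma 0 of them passed the threshold, with 0 at an unadjusted p under 0.05 and 0 called by SAM, beside 1, 13 and 8 of all 109 rows, so that nothing is read from these zeros.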

How the data were processed

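Liver miRNA of 6 pools of newborn male piglets was hybridized to pig arrays of LC Sciences with probes for miRBase miRNAs, labelled with Cy5. The authors subtracted the background, normalized by LOWESS and deposited linear intensity values, 1 for each probe on each array, with blank cells. For undetected miRNAs the authors name low fluorescence. For abundant ones they propose that bases differing from the miRBase probe sequence may be a reason. The exact limit for a blank is not given in the sources used here. A blank was taken as no value.

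With R 4.3.3 and limma 3.58.1, log2 signals were fitted with a breed term (lmFit, then eBayes) for named rows listed on 2 or more arrays in both breeds. Rows with a Benjamini-Hochberg adjusted p under 0.15 were called. SAM was recomputed from its statistic with 20 relabellings. Both were tested on simulated data. Descriptions and plots were made with numpy 2.4.6, matplotlib 3.10.9 and pandas 2.3.3 under Python 3.11.15.

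Named were the 3 miRNAs, family members, gene neighbours within 50 kb in the Sscrofa11.1 gene table, the 3 nearest profiles of each, the rows called, and the ends of the lists. The 8 other non-overlapping rows were named after their values were seen. The members and lists were chosen with earlier results of these data known. Alternatives were SAM, stricter thresholds of 0.10 and 0.05, a trended and robust fit, median centring, quantile normalization, an offset of 16, array weights, a replicate block, filters on listed arrays and on a mean signal of 32, no filter, the ratio of mean signals, and each array left out. The scalings over all listed rows by centring and over shared rows by quantiles were chosen after seeing the data. Sequencing, RT-qPCR and mRNA data were not used here.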

Additional observations from a re-analysis of the deposited data

How the results depend on the processing

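The log2 difference between breeds stayed above 0 for miR-378, miR-185 and miR-130b under every alternative run. Quantile normalization of all listed signals moved it to 0.60, 0.30 and 0.19, and centring over all listed rows, chosen after seeing the data, moved it to 0.48 for miR-185 and 0.42 for miR-130b. Both scalings were taken over all listed signals, whose number differed between arrays, and why they moved the values was not tested. With each array left out the log2 difference ranged from 0.79 to 1.31 for miR-378, from 0.67 to 0.95 for miR-185 and from 0.51 to 0.83 for miR-130b. It was highest without EHL array 1 in each.

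The number of rows called, 1 by limma, was 8 by SAM, 7 with array weights (4 higher and 3 lower in EHL), 0 with quantile normalization (11 at an unadjusted p under 0.05), 2 with quantile normalization over the shared rows and 0 with centring over all listed rows (9 at an unadjusted p under 0.05), the last 2 chosen after seeing the data. With each array left out it ranged from 0 without LW array 3 or EHL array 2 to 24 without EHL array 1, and was 2 without LW array 1. Of the 3 miRNAs, 0 were called by limma, 3 by SAM, 1 with array weights and 0 to 3 with each array left out, 3 only without EHL array 1.

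With the replicate block limma called 0 rows (8 at an unadjusted p under 0.05) and 0 of the 3 miRNAs. Arrays of the same number did not deviate together, the correlation of their deviations being -0.50 for number 1, -0.011 for number 2 and -0.66 for number 3. The arrays were not treated as pairs because the labels do not say that an array number links litters of different breeds. These correlations do not show that arrays of the same number were independent.

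Precision is limited by 3 arrays a breed. The signal of miR-378 was as low as 2.15 times the lowest listed on its array, and blanks give no level. Farm and breed were not separated.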
